A study of Mus musculus with 4 samples.

Results

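The 10 genes described here are markers of alveolar type 1 (AT1) cells: Ager, Hopx, Pdpn, Aqp5, Akap5, Clic5, Rtkn2, Emp2, Spock2 and Igfbp2. They were found by symbol, all 10 of them, among the 23444 genes of the table, and every one passed the filter on low values described below. RNA had been sequenced from EpCAM-positive cells sorted from mouse lungs at E18.5 (days of gestation), in 2 libraries of embryos whose developing lung epithelium carried a conditional Emc3 knock-out (KO) and 2 of wild-type embryos (WT). Emc3 encodes a core subunit of the endoplasmic reticulum membrane protein complex, which helps to insert membrane proteins. EpCAM is an adhesion molecule on the surface of epithelia, and the sort sets which cells a library holds. The labels name no Cre driver, strain or litter and no number of embryos behind a library. Levels are given in the RPKM of the authors (read counts divided by gene length and by the library's mapped reads), and errors after ± are SD over the 2 libraries of a group. Each library carries its group and the leading number of its column (27 or 35), which the labels do not explain.

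The column headings and the sample titles disagree: going by the titles, KO 27 would be a wild-type sample and WT 35 a knockout sample. Groups follow the headings, and Emc3 was at 2.28 and 2.33 RPKM in libraries KO 27 and KO 35, against 14.2 and 17.99 RPKM in WT 27 and WT 35. By Xist and the Y-linked gene Eif2s3y, KO 35 and WT 27 were female and KO 27 and WT 35 male. RPKM summed to between 141373 and 146918 in KO and between 151616 and 169294 in WT. Read numbers are unknown, so no counting interval can be given. Nothing in the labels says that the libraries of a group come from separate litters, so the p-values reflect only how far these 4 libraries spread.

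AT1 cells are the thin, spread-out cells that cover most of the gas-exchange surface of the lung. They arise in the distal epithelium before birth beside the cuboidal alveolar type 2 (AT2) cells, which make surfactant. Their flat shape goes with a large plasma membrane, and several of the genes used to recognise them encode proteins of that membrane or of the cell cortex below it. In lung RNA from many cells at once, fewer AT1 cells and less AT1 RNA per cell cannot be told apart.

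All 10 genes are protein-coding in the GENCODE annotation of GRCm38, the assembly that mm10 names. Ager lies on chromosome 17 from 34597862 to 34600936 and Clic5 on the same chromosome from 44188584 to 44280172. Rtkn2 (67979570 to 68059740) and Spock2 (60106219 to 60135198) are both on chromosome 10. Hopx is on chromosome 5 from 77086988 to 77115121, Pdpn on chromosome 4 from 143267431 to 143299564 and Aqp5 on chromosome 15 from 99590782 to 99594829. Akap5 is on chromosome 12 from 76324891 to 76334153, Emp2 on chromosome 16 from 10281749 to 10313968 and Igfbp2 on chromosome 1 from 72824503 to 72852474. Exons of Hopx overlap an exon of the antisense gene Hopxos, and exons of Rtkn2 overlap exons of the antisense gene Gm16212. No source says that strand was used in counting, so reads from these overlaps cannot be assigned to a strand.

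The promoters of 9 members were found in the RefSeq table for GRCm38.p6, as 11 windows of 250 bases before to 50 bases after a gene start. The median window held 16 CpG dinucleotides and 58.3% G and C, where the median over 32851 promoters of the same length was 7 and 52.7%. The members spread widely: the Ager window held 4 CpG and the Aqp5 window 46, with 58.3% and 79.7% G and C. Motifs were searched on both strands, each being a short core known to be bound by a factor family of lung epithelium, and no match overlapped another. The TEAD core GGAATG was in none of the 11 windows and in 14.7% of all promoters. The GATA core AGATAA was likewise in none, and in 11.2% of all promoters. The NKX2-1 core CAAGTG was in 2 windows (Hopx and Spock2) and in 13.6% of all promoters. The FOXA core was written as TGTTTAC, or with A as its second letter. It was in 2 windows (Hopx and Pdpn) and in 6.54% of all promoters. A match is a run of letters and not a shown binding site, and a missing match covers these windows alone. Printed below are Ager and Aqp5 for the ends of the CpG range, and Hopx and Pdpn for their matches, which stand in capitals. The windows are chr17:34597600-34597899 (plus strand) for Ager, chr15:99590778-99591077 (plus) for Aqp5, chr5:77095218-77095517 (minus) for Hopx and chr4:143299515-143299814 (minus) for Pdpn.
Ager: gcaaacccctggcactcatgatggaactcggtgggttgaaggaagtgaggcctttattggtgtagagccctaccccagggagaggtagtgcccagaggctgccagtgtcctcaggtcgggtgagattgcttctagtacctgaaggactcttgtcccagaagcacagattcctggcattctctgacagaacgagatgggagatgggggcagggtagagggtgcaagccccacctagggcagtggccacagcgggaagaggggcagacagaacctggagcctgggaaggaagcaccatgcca
Aqp5: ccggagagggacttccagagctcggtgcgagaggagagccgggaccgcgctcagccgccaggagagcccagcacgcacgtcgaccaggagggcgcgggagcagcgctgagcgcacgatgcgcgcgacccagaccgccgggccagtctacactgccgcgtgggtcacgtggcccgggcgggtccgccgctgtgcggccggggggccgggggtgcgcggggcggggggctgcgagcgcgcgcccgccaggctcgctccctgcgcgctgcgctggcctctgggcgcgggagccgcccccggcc
Hopx: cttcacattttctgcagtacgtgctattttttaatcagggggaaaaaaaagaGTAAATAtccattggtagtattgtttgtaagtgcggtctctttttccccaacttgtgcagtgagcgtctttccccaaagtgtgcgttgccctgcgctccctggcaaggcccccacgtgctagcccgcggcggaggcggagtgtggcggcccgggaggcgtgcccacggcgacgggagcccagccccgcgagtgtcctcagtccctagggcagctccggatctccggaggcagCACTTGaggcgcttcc
Pdpn: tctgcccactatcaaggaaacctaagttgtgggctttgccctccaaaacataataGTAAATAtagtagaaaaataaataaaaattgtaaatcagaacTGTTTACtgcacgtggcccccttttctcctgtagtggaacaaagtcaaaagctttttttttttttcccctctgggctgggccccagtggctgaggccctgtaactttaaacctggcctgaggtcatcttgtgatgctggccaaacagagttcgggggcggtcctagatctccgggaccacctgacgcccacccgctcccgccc

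AT1 transcripts were present in every library. Apart from Igfbp2, every member was at 4.98 RPKM or more in each of the 4 libraries. RPKM is scaled to gene length, so levels can be set side by side. In KO the order of mean levels was Emp2 (76.2 ± 4.46), Akap5 (63.1 ± 2.28), Hopx (55.6 ± 0.805), Ager (54.1 ± 5.84), Clic5 (28.1 ± 7.39), Spock2 (12.9 ± 0.440), Pdpn (11.2 ± 1.26), Aqp5 (8.90 ± 1.30), Rtkn2 (5.95 ± 1.38) and Igfbp2 (0.671 ± 0.153 RPKM). In WT it was Akap5 (83.8 ± 33.9), Ager (69.6 ± 16.9), Hopx (68.9 ± 32.4), Emp2 (59.9 ± 4.42), Clic5 (37.9 ± 8.06), Spock2 (15.2 ± 3.13), Pdpn (9.88 ± 0.739), Rtkn2 (9.12 ± 1.04), Aqp5 (8.89 ± 2.097) and Igfbp2 (1.80 ± 0.859 RPKM). The upper neighbours Akap5, Ager, Hopx and Emp2 overlapped in WT, as did Pdpn, Rtkn2 and Aqp5. In KO only the neighbours Hopx and Ager overlapped.

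No AT1 marker passed the test of KO against WT. Genes with at least 1 RPKM in 2 libraries or more were kept. Limma on log2(RPKM + 1) called 0 of 10 members at an adjusted p of 0.05, beside 7 of 10128 tested genes, or 0.0691% (0.0296% higher and 0.0395% lower in KO). At an unadjusted p under 0.05 there were 2 members (Rtkn2 and Igfbp2), beside 13.8% of all genes; Igfbp2 passed the filter through WT alone. The fitted difference was below 0 in 7 members, beside 40.8% of all genes, and above 0 in 3, and its median was -0.28, against 0.06 over all tested genes. The 2 KO libraries lay on one side of the 2 WT libraries in 3 members, Emp2 above and Rtkn2 and Igfbp2 below, beside 46.4% of all genes (30.0% above and 16.3% below). That share of members is not above the background. With 2 libraries against 2, an exact permutation test of a single gene could not reach 0.05, so only the fit across genes was used.

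**Figure D1:**
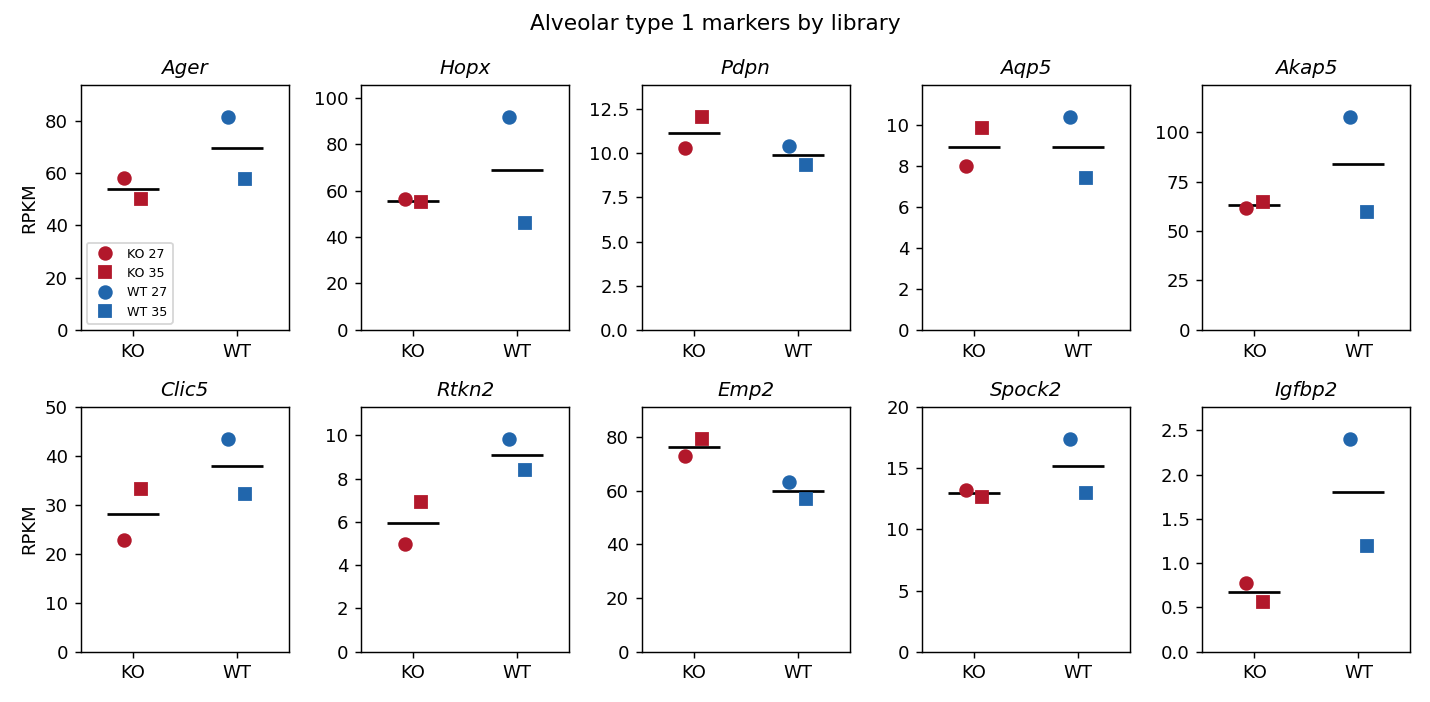
RPKM (y axis, from 0) of each AT1 marker in the KO libraries and the WT libraries; circles are libraries numbered 27, squares are libraries numbered 35, and bars are group means. WT 27 is the highest library in 8 of 10 panels, and groups are separate only for Rtkn2, Emp2 and Igfbp2.

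Of the membrane proteins, Ager had a lower mean in KO and Pdpn and Emp2 a higher one, and none passed the test. Ager encodes RAGE, a pattern-recognition receptor that AT1 cells carry on their basal side. It was at 58.2 and 49.96 RPKM in libraries KO 27 and KO 35, against 81.5 and 57.6 RPKM in WT 27 and WT 35. KO 27 stood just above WT 35, so the groups overlapped, and the difference was -0.34 on the log2 scale (SE 0.21, 95% interval -0.86 to 0.17, limma adjusted p = 0.540). Pdpn encodes podoplanin, a mucin-like transmembrane glycoprotein of the apical membrane. Its levels were 10.3 and 12.1 RPKM in libraries KO 27 and KO 35, against 10.4 and 9.36 RPKM in WT 27 and WT 35. The groups overlapped here too, with a log2 difference of 0.16 (SE 0.15, interval -0.21 to 0.53, limma adjusted p = 0.705).

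Aqp5 encodes a water channel of the apical membrane, which in lung is also made by airway and gland cells. It was at 7.98 and 9.82 RPKM in libraries KO 27 and KO 35, against 10.4 and 7.41 RPKM in WT 27 and WT 35. The group means were 8.90 and 8.89 RPKM, and the log2 difference of 0.01 had an interval of -0.48 to 0.50. Emp2 encodes a membrane protein of the PMP22 family that crosses the membrane several times. It reached 73.0 and 79.3 RPKM in libraries KO 27 and KO 35, against 63.0 and 56.7 RPKM in WT 27 and WT 35. Both KO libraries stood above both WT libraries, with a log2 difference of 0.34 (SE 0.14, interval -0.01 to 0.70, limma adjusted p = 0.377). Emp2 was the highest member in each KO library and ranked below Akap5 in each WT library. Set against Ager of the same library, Emp2 was at 1.25 and 1.59 times its level in KO 27 and KO 35 and at 0.773 and 0.985 times in WT 27 and WT 35.

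Among proteins of the cell cortex and cytoplasm, Akap5 anchors protein kinase A near the plasma membrane. It was at 61.5 and 64.7 RPKM in libraries KO 27 and KO 35, against 107.8 and 59.8 RPKM in WT 27 and WT 35. WT 35 was below both KO libraries and WT 27 far above them (log2 difference -0.34, SE 0.28, limma adjusted p = 0.659). Clic5, a chloride intracellular channel family protein linked to cortical actin, was at 22.9 and 33.4 RPKM in libraries KO 27 and KO 35, against 43.6 and 32.2 RPKM in WT 27 and WT 35. KO 35 stood just above WT 35, and the log2 difference was -0.42 (SE 0.24, limma adjusted p = 0.503). Rtkn2, which encodes rhotekin 2, was at 4.98 and 6.93 RPKM in libraries KO 27 and KO 35, against 9.85 and 8.38 RPKM in WT 27 and WT 35. Both KO libraries were below both WT libraries, with a log2 difference of -0.55 (SE 0.19, interval -1.02 to -0.09). The interval is for this gene alone, and over all genes Rtkn2 did not pass (limma adjusted p = 0.302).

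Hopx encodes a small homeodomain protein that does not bind DNA itself and acts through other transcription regulators. It was at 56.2 and 55.1 RPKM in libraries KO 27 and KO 35, against 91.7 and 46.0 RPKM in WT 27 and WT 35. The KO libraries were nearly equal and lay between the WT libraries, which differed by a factor of 1.996 (log2 difference -0.22, SE 0.32, interval -1.02 to 0.58, limma adjusted p = 0.808).

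Of the secreted proteins, Spock2 is a testican, a proteoglycan of the extracellular matrix. It was at 13.3 and 12.6 RPKM in libraries KO 27 and KO 35, against 17.4 and 13.0 RPKM in WT 27 and WT 35, and the groups overlapped (log2 difference -0.20, SE 0.17, limma adjusted p = 0.673). Igfbp2 encodes an insulin-like growth factor binding protein and is known in mouse as a marker of AT1 cells that mature after birth. It was the lowest member, at 0.780 and 0.563 RPKM in libraries KO 27 and KO 35, against 2.41 and 1.19 RPKM in WT 27 and WT 35. Its log2 difference was -0.71 (SE 0.25, interval -1.32 to -0.10, limma adjusted p = 0.308). Igfbp2 was below 1 RPKM in both KO libraries and passed the filter through WT alone, so it could be tested only because WT was higher. The mean was 2.68 times higher in WT than in KO, close to the filter. At such levels the size depends on the pseudocount: the log2 difference was -1.24 with a pseudocount of 0.1 and -0.26 with 5.

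**Figure D2:**
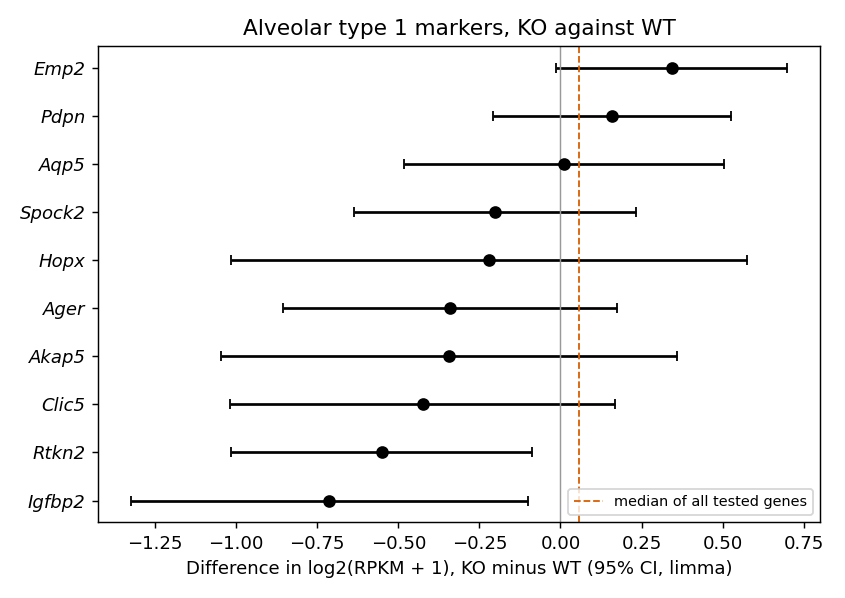
Difference in log2(RPKM + 1) between KO and WT (x axis) for each AT1 marker, with limma's 95% confidence interval for the single gene; the dashed line is the median of all tested genes, 0.06. The intervals of Rtkn2 and Igfbp2 leave out 0, Igfbp2 passed the filter through WT alone, and none of the 10 markers passed after adjustment over all genes.

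The main feature of the AT1 markers was the difference between the WT libraries. WT 27 was above WT 35 in 10 of 10 members, where this held for 44.3% of all tested genes. The median log2 difference between WT 27 and WT 35 was 0.43 over the members and -0.04 over all genes. Ratios of WT 27 to WT 35 ran from 1.11 for Emp2 and Pdpn to 1.80 for Akap5, 1.996 for Hopx and 2.02 for Igfbp2. WT 27 was also the highest of all 4 libraries in 8 of 10 members, beside 17.5% of all genes. The other members, Pdpn and Emp2, were highest in KO 35. The summed level of the members was 309 and 324 RPKM in libraries KO 27 and KO 35, against 438 and 292 RPKM in WT 27 and WT 35, so WT 35 was the lowest library of the 4. Within KO the members showed no such order: KO 27 was below KO 35 in 6 of 10, beside 54.1% of all genes, with a median difference of -0.10.

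The median difference of the members between KO and WT had a different sign in the 2 pairs of libraries that share a number. KO 27 was below WT 27 in 9 of 10 members (40.0% of all genes), with a median log2 difference of -0.59, against 0.06 over all genes. KO 35 was below WT 35 in 4 of 10 members (43.6% of all genes), with a median of 0.08, against 0.05 over all genes. In 5 of 10 members the sign was the same in both pairs: Ager, Rtkn2, Spock2 and Igfbp2 were lower and Emp2 higher in KO. Each of these sets 1 library against 1 library, of opposite sex, and carries no test. Without WT 27 the median of the fitted differences was 0.08 over 9 members, and Hopx was at 0.27 and Akap5 at 0.08. Without WT 35 the median was -0.59, with -0.71 for Hopx and -0.76 for Akap5. Igfbp2 did not pass the filter in either of these fits. Among the other 9 members, Rtkn2, Clic5, Ager and Spock2 had a difference below 0 and Emp2 and Pdpn one above 0 whichever WT library was left out. Without WT 27 it was -0.45 for Rtkn2 and -0.21 for Clic5, but only -0.09 for Ager and -0.0050 for Spock2.

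**Figure D3:**
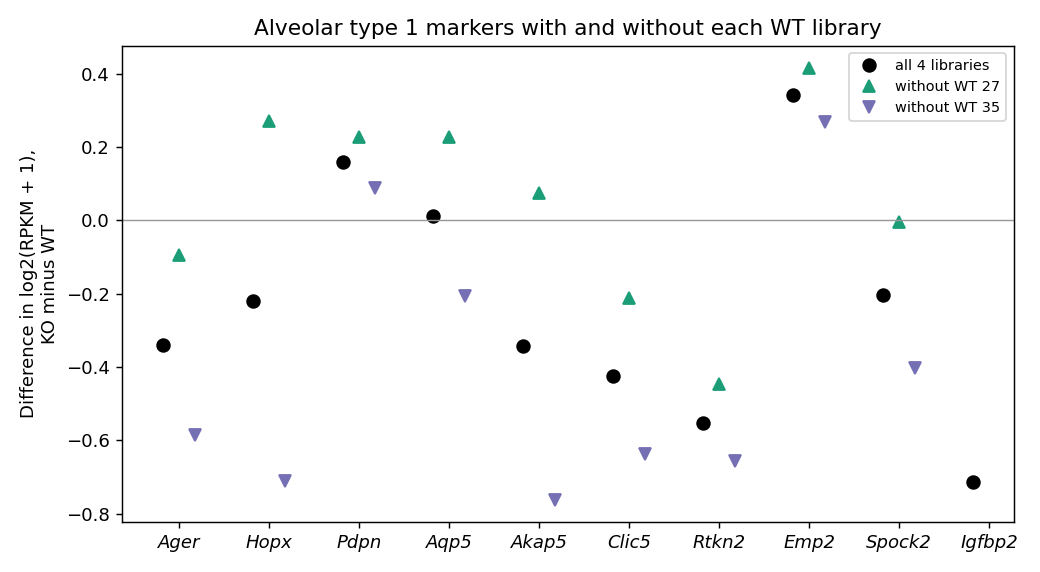
Difference in log2(RPKM + 1) between KO and WT (y axis) for each AT1 marker with all 4 libraries (circles), without WT 27 (upward triangles) and without WT 35 (downward triangles). Hopx was at 0.27 without WT 27 and at -0.71 without WT 35; Igfbp2 has no triangles because it did not pass the filter there.

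Markers of AT2 cells stood differently between the WT libraries. Of the 14 listed, which include the surfactant protein genes, 12 were highest in WT 35 (26.4% of all genes) and 9 were lowest in WT 27 (33.6% of all genes). Their median difference between WT 27 and WT 35 was -0.57 on the log2 scale, and that between KO and WT was -0.13. Between KO and WT the difference was below 0 in 12 of 14 (40.8% of all genes), the direction of most AT1 markers. Both KO libraries were below both WT libraries in 4 of 14 (16.3% of all genes) and above them in 0 (30.0% of all genes). Limma called 0 of 14, with 4 at an unadjusted p under 0.05 (13.8% of all genes). The summed level of AT2 markers was 12086 and 11957 RPKM in libraries KO 27 and KO 35, against 10573 and 16550 RPKM in WT 27 and WT 35. WT 27 thus held the highest sum of the 10 AT1 markers and the lowest AT2 sum. The 20 other AT1 genes listed summed highest in KO 35. Their sums were 713 and 839 RPKM in libraries KO 27 and KO 35, against 772 and 704 RPKM in WT 27 and WT 35. WT 27 was above WT 35 in 12 of the 18 that were tested, beside 44.3% of all genes. The part of cell composition in the AT1 values was not tested.

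**Figure D4:**
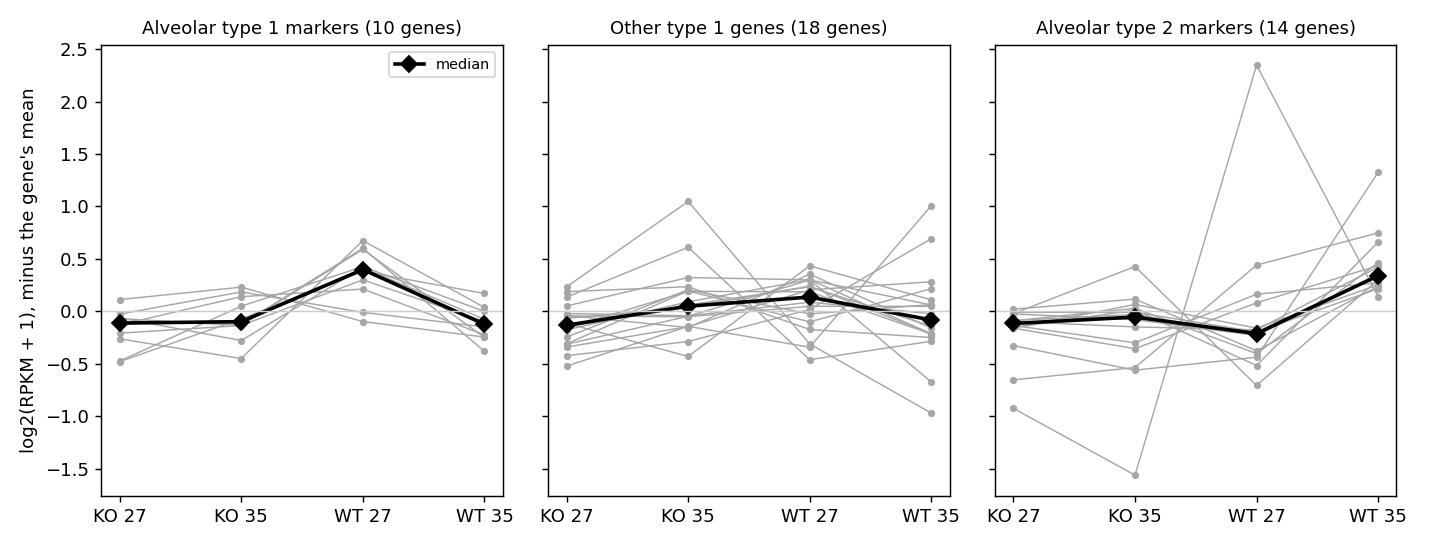
Level of each gene on the log2(RPKM + 1) scale after subtracting its mean over the 4 libraries (y axis), by library (x axis), for the AT1 markers, other AT1 genes and AT2 markers that were tested; grey lines are genes and black diamonds their median. The AT1 marker median is highest in WT 27, at 0.40, and the AT2 marker median is highest in WT 35, at 0.34.

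None of the other AT1 genes that were listed and tested passed either. Of 20 listed, 18 were tested and 0 were called by limma, with 6 at an unadjusted p under 0.05 (13.8% of all genes). The difference was below 0 in 13 (40.8% of all genes) and above 0 in 5, with a median of -0.09. The groups did not overlap in 8 (3 with KO above, 5 with KO below). Over all genes the groups did not overlap in 46.4% (30.0% above, 16.3% below), so 8 of 18 is not above the background for both directions together. By direction, the 5 of 18 below are a larger share than over all genes and the 3 of 18 above a smaller one. Cav1, which encodes caveolin 1, the coat protein of the caveolae that are dense in AT1 cells, was at 46.8 and 53.8 RPKM in libraries KO 27 and KO 35, against 68.8 and 72.7 RPKM in WT 27 and WT 35 (log2 difference -0.49, limma adjusted p = 0.257). Ndnf, which encodes a secreted neuron-derived neurotrophic factor, was at 50.6 and 89.8 RPKM in libraries KO 27 and KO 35, against 34.4 and 21.4 RPKM in WT 27 and WT 35 (log2 difference 1.28, limma adjusted p = 0.215). The groups did not overlap for Cav1 or Ndnf, and the directions were opposite. The tight junction gene Cldn18, which AT2 cells express as well, averaged 198 ± 4.64 RPKM in KO and 148 ± 5.57 RPKM in WT. Anxa3, an annexin gene, averaged 44.2 ± 10.4 RPKM in KO and 25.6 ± 2.29 RPKM in WT.

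Regulators of alveolar cell fate mostly had slightly lower values in KO, and none passed. TAZ (gene Wwtr1) and YAP1 are co-activators that act on target genes through the TEAD factors, and this pathway is known to act in AT1 fate. Of 12 listed regulators, 12 were tested and 0 were called by limma, with 2 at an unadjusted p under 0.05 (13.8% of all genes). The difference was below 0 in 10 (40.8% of all genes), with a median of -0.14. KO was below WT in every library for 5 of them, beside 16.3% of all genes. Wwtr1 was at 10.5 and 11.9 RPKM in libraries KO 27 and KO 35, against 15.9 and 13.7 RPKM in WT 27 and WT 35 (limma adjusted p = 0.358). Tead4 was at 2.13 and 2.22 RPKM in libraries KO 27 and KO 35, against 3.49 and 3.49 RPKM in WT 27 and WT 35 (log2 difference -0.50, limma adjusted p = 0.215). Tead1 averaged 10.9 ± 1.47 RPKM in KO and 14.0 ± 1.39 RPKM in WT. Yap1 was at 7.16 and 8.62 RPKM in libraries KO 27 and KO 35, against 7.83 and 8.16 RPKM in WT 27 and WT 35. Its groups overlapped, with a log2 difference of -0.02. Tead2 had a log2 difference of 0.11, and its groups overlapped too. Yap1 and Tead2 were named after their values were seen. Nkx2-1, the lung epithelial lineage factor, was at 271 and 264 RPKM in libraries KO 27 and KO 35, against 270 and 278 RPKM in WT 27 and WT 35, and was named after its values were seen.

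Proteins that bind the products of Ager and Pdpn were followed as well. RAGE, the product of Ager, binds S100 proteins and HMGB1. Of 9 listed RAGE partners 7 were tested, all with a difference above 0 and a median of 0.65. Over all genes the difference was below 0 in 40.8%. Limma called 0 of the 7, with 2 at an unadjusted p under 0.05 (13.8% of all genes). KO was above WT in every library for 3 of the 7, beside 30.0% of all genes. The median was 1.30 for KO 27 minus WT 27, with 0 of 7 below 0, and -0.04 for KO 35 minus WT 35, with 4 of 7 below 0. S100a8, named after its values were seen, was at 4.61 and 2.05 RPKM in libraries KO 27 and KO 35, against 0.550 and 3.50 RPKM in WT 27 and WT 35, and its groups overlapped. S100a1 was at 26.7 and 36.0 RPKM in libraries KO 27 and KO 35, against 5.67 and 7.93 RPKM in WT 27 and WT 35 (log2 difference 2.05, SE 0.22, limma adjusted p = 0.0670). Of the podoplanin partners, 6 of 8 were tested, 3 with a difference above 0 and 3 below. Limma called 0 of the 6, with 3 at an unadjusted p under 0.05 (13.8% of all genes). KO was above WT in every library for 3 of the 6, beside 30.0% of all genes. Cd44, a hyaluronan receptor that can bind podoplanin, was at 21.8 and 19.6 RPKM in libraries KO 27 and KO 35, against 3.72 and 5.34 RPKM in WT 27 and WT 35 (log2 difference 1.99, SE 0.19, limma adjusted p = 0.0648). Ezr, which encodes ezrin, a linker between membrane proteins and actin, averaged 46.2 ± 0.517 RPKM in KO and 33.2 ± 0.285 RPKM in WT. Msn and Rdx went the other way, and their groups overlapped. Msn averaged 107 ± 9.73 RPKM in KO and 122 ± 19.1 RPKM in WT (log2 difference -0.18). Rdx, named after its values were seen, averaged 15.9 ± 2.51 RPKM in KO and 17.6 ± 2.73 RPKM in WT.

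**Figure D5:**
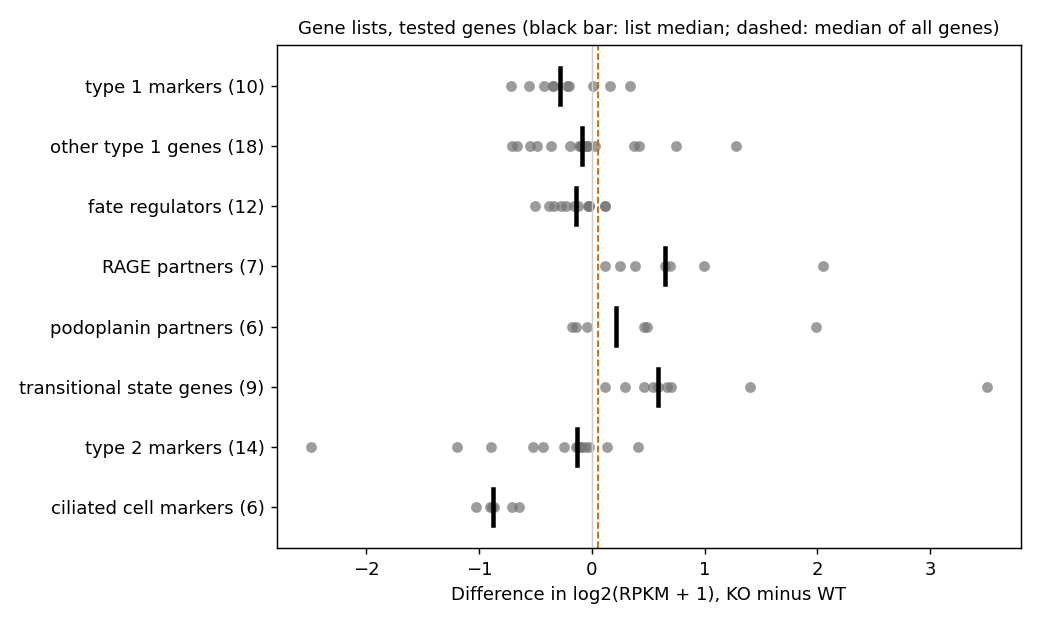
Difference in log2(RPKM + 1) between KO and WT (x axis) for the tested genes of each list (grey points, with the number tested in parentheses); black bars are list medians and the dashed line is the median of all tested genes. The AT1 marker median is -0.28, and the median of the genes of the state between AT2 and AT1 cells is 0.59.

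Genes of the state between AT2 and AT1 cells, which share keratins and other genes with AT1 cells, were set beside the AT1 markers. Their differences between KO and WT were of the opposite sign to most AT1 markers. All 9 tested of 10 listed had a difference above 0, with a median of 0.59, and KO was above WT in every library for 7 (30.0% of all genes). Over all genes the difference was below 0 in 40.8%. None of the 9 was called by limma, and 4 had an unadjusted p under 0.05 (13.8% of all genes). The median was 0.19 for KO 27 minus WT 27, with 2 of 9 below 0, and 1.147 for KO 35 minus WT 35. KO 35 was the highest library in 8 of 9, where this held for 33.2% of all genes. Between the WT libraries the direction was that of the AT1 markers, with WT 27 above WT 35 in 7 of 9 (44.3% of all genes). Areg, which encodes the growth factor amphiregulin, was at 66.3 and 106.3 RPKM in libraries KO 27 and KO 35, against 4.53 and 9.18 RPKM in WT 27 and WT 35 (log2 difference 3.50, SE 0.35, limma adjusted p = 0.0670). Krt18, a keratin of simple epithelia, averaged 27.8 ± 4.65 RPKM in KO and 18.1 ± 2.72 RPKM in WT.

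Some of the members are also made outside AT1 cells, so markers of other cells are given for the same libraries. Podoplanin is known from lymphatic endothelium and mesothelium. The 5 lymphatic markers summed to 3.41 and 4.42 RPKM in libraries KO 27 and KO 35, against 4.28 and 4.04 RPKM in WT 27 and WT 35, and the 5 mesothelial markers to 21.6 and 29.3 RPKM in KO, against 29.6 and 27.2 RPKM in WT. The 7 blood endothelial markers summed to 12.1 and 15.8 RPKM in KO, against 13.6 and 16.1 RPKM in WT. No marker of these 3 lists was at 0 in any library, but some were near it. The filter was passed by 1 of 5 lymphatic, 3 of 5 mesothelial and 6 of 7 blood endothelial markers. Most of the lymphatic sum came from Lyve1 and most of the mesothelial sum from Msln. All 6 ciliated cell markers were lower in both KO libraries than in both WT libraries, beside 16.3% of all genes, with sums of 110.0 and 111.1 RPKM in libraries KO 27 and KO 35, against 161 and 243 RPKM in WT 27 and WT 35. The 6 immune markers summed to 145 and 176 RPKM in KO, against 59.8 and 126 RPKM in WT, most of it from Cd74. Cd74 alone was at 135 and 170 RPKM in libraries KO 27 and KO 35, against 56.2 and 124 RPKM in WT 27 and WT 35. None of the other immune markers was above 3.57 RPKM in any library. Ptprc did not pass the filter and was named after its values were seen. It was at 0.401 and 0.185 RPKM in libraries KO 27 and KO 35, against 0.177 and 0.0616 RPKM in WT 27 and WT 35. The 5 immune markers that were tested were all higher in both KO libraries than in both WT libraries (30.0% of all genes). Of these, 3 had an unadjusted p under 0.05 (13.8% of all genes) and 0 were called by limma. Tyrobp, an adaptor of myeloid cell receptors, was at 3.57 and 1.80 RPKM in libraries KO 27 and KO 35, against 0.830 and 0.182 RPKM in WT 27 and WT 35. Tyrobp and Cd52 passed the filter through KO alone. The 7 mesenchymal markers summed to 22.3 and 20.6 RPKM in KO, against 17.5 and 25.3 RPKM in WT. The 5 club cell markers summed to 1817 and 2968 RPKM in KO, against 2908 and 10062 RPKM in WT, most of it from Scgb1a1. Scgb1a1 was at 1560 and 2698 RPKM in libraries KO 27 and KO 35, against 2556 and 9678 RPKM in WT 27 and WT 35, and its groups overlapped. Both KO libraries were below both WT libraries in 2 of the 5 club cell markers (16.3% of all genes). The difference was below 0 in 4 and above 0 in 1 (40.8% of all genes below). Epcam itself was at 52.9 and 53.9 RPKM in libraries KO 27 and KO 35, against 35.2 and 46.2 RPKM in WT 27 and WT 35. Of 5 epithelial markers listed, 4, with Epcam among them, were higher in both KO libraries than in both WT libraries (30.0% of all genes). The other, Cdh1, averaged 117 ± 16.3 RPKM in KO and 120 ± 9.30 RPKM in WT. Cdh1 was named after its values were seen. The part of these cells in the AT1 values was not tested.

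For each member the genes with the most similar profile over the 4 libraries were found among 4465 tested genes with a mean of at least 5 RPKM, by the root mean square (RMS) difference of their centred log2(RPKM + 1) values. For Ager these were Mrpl14 (RMS 0.023), Tspan15 (0.025) and Apbb2 (0.043). Hopx came closest to Tgfb2 (0.075), Pgap2 (0.078) and the member Akap5 (0.087). Clic5 came closest to Ddhd1 (0.049), Pts (0.055) and Scnn1g (0.079). Aqp5 had St6galnac2 (0.021), Uqcrc1 (0.028) and Vegfa (0.033), the last being one of the other AT1 genes listed. The profile of Tgfb2, at 8.37 and 7.69 RPKM in libraries KO 27 and KO 35 and 14.0 and 5.74 RPKM in WT 27 and WT 35, shows the WT 27 peak seen in Hopx. With 4 libraries many genes lie this close, and likeness is given as a description.

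The authors' deposited table has its own p-value and fold change for each gene. In the authors' deposited table no member had a p under 0.05, beside 2.64% of its 23444 genes, and the lowest was 0.176 for Igfbp2. Its fold changes were negative, meaning lower in KO, for 9 of 10 members, with 1.19 for Emp2. For Hopx the authors' deposited table gives -2.62 and a p of 0.189, whereas the ratio of the mean RPKM in KO to that in WT was 0.808. Pdpn has a fold change of -1.75 in the authors' deposited table, against an RPKM ratio of 1.13. The sign differed from that of the RPKM ratio in 2 members, Pdpn and Aqp5, and over tested genes with both values in the authors' deposited table it differed in 31.4%. Those fold changes are thus not ratios of the RPKM columns, and no source used here says how they were computed.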

How the data were processed

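RNA of 4 libraries was used. Per the labels' protocols, an RNeasy Micro kit gave the RNA and a Nextera XT kit the libraries. TopHat2 2.0.8, Bowtie2 2.1.0, DESeq and Cufflinks 2.0.2 and the mm10 genome are listed in the submitters' processing notes, without their roles. The authors deposited RPKM per gene and library, per the file headers, not log transformed, with a p-value and a signed fold change (a score that is minus the inverse ratio where KO is lower).

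The 10128 of 23444 genes that reached 1 RPKM in 2 or more libraries were fitted on the log2(RPKM + 1) scale by limma 3.58.1 (R 4.3.3), using a prior variance with a trend and a single term, genotype, which leaves 2 residual degrees of freedom. P-values (two-sided) were adjusted by Benjamini-Hochberg over these genes, and 0.05 was the threshold. A log2 difference understates the change of low genes.

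Members and lists were chosen with earlier results of these data known. The text names all members, Emc3, up to 4 genes of each other list with the smallest p, and the 3 genes nearest to a member's profile, in selection. Columns were grouped by their headings, since headings and titles disagree. Alternatives were quantile normalization, no trend, other filters and pseudocounts, a block by heading number, the groups of the titles, and leaving out each library. Figures used Python 3.11.15 with matplotlib 3.10.9.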

Additional observations from a re-analysis of the deposited data

How the results depend on the processing

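No AT1 marker and no other AT1 gene passed the limma threshold under any of the 12 alternatives, and the lowest adjusted p of a member was 0.150 (Akap5 without WT 35), in a range up to 0.998 for that gene. The number of all genes past the threshold was 7, against 4 with a pseudocount of 5, 2 with no filter, 4 with the groups of the titles and 9 to 63 with 1 library left out (63 without WT 27, 35 without WT 35, 13 without KO 27). With 1 library left out, the number of members whose groups did not overlap was 4 to 8 (6 without KO 27, 4 without KO 35, 6 without WT 27 and 8 without WT 35), beside 68.1% to 76.4% of all genes tested in those fits, and the median difference of the members was -0.59 to 0.076. Without WT 27 or without WT 35 the remaining WT library is assumed to vary like the KO libraries, and the cause of the difference between them was not tested. Of 107 member values under alternatives that keep the groups of the headings, 5 changed sign, in Hopx and Akap5 without WT 27 and in Aqp5 with quantile normalization, without KO 35 and without WT 35. With the groups of the titles the lowest adjusted p of a member was 0.998. A block by heading number gave 9 genes past the threshold and 0 members. No label says what the numbers mark, so they were not taken as a pairing. Libraries with the same number deviated together with a correlation of 0.148 across genes, from 2 pairs. With 2 libraries per group the crossed pairs must give the same size with the other sign (-0.148), so this value cannot decide the question. The number of reads is unknown, which limits what can be said of Igfbp2.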

Other observations

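Relatives of the members, from the same gene families, were followed in the same libraries. Of 23 listed, 16 were tested and 0 were called by limma, with 4 at an unadjusted p under 0.05 (13.8% of all genes). The median log2 difference was -0.02, with 6 above and 10 below 0 (40.8% of all genes below). Igfbp6, which like Igfbp2 encodes an insulin-like growth factor binding protein, was at 2.81 and 2.38 RPKM in libraries KO 27 and KO 35, against 9.90 and 7.03 RPKM in WT 27 and WT 35 (log2 difference -1.38, SE 0.19, limma adjusted p = 0.108). Both KO libraries lay below both WT libraries for Igfbp2, Igfbp5 and Igfbp6, beside 16.3% of all genes, and Igfbp2 passed the filter through WT alone. Igfbp3 went the other way, at 1.09 and 1.06 RPKM in libraries KO 27 and KO 35, against 0.693 and 0.768 RPKM in WT 27 and WT 35. It passed the filter through KO alone. Igfbp7 had a log2 difference of -0.0003. Igfbp3, Igfbp5 and Igfbp7 were named after their values were seen. Among the chloride intracellular channel genes, Clic1 averaged 15.5 ± 2.12 RPKM in KO and 10.3 ± 1.25 RPKM in WT, and Clic6 averaged 5.46 ± 0.719 RPKM in KO and 7.72 ± 0.863 RPKM in WT. The water channel gene Aqp3, a marker of airway basal cells in lung, was at 1.24 and 1.64 RPKM in libraries KO 27 and KO 35, against 0.290 and 0.815 RPKM in WT 27 and WT 35, and passed the filter through KO alone. Of 5 other basal cell markers listed, 1 was tested, Krt15, and it went the other way. Krt15 was at 4.50 and 2.56 RPKM in libraries KO 27 and KO 35, against 11.2 and 6.70 RPKM in WT 27 and WT 35.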
